A study of Mus musculus with 4 samples.

Results

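Class 10 of the deposited clustering was a small group of adult mouse mammary nuclei whose open chromatin held regions of both luminal lineages. Its members were the nuclei that the authors' cluster column numbers 10 in the adult libraries, and no measured value was used here to choose them. They were 143 of 5269 adult nuclei and of 7846 nuclei in all. Adult library 1 held 82 of them, 3.33% of its nuclei (95% exact binomial interval 2.65 to 4.11%), and adult library 2 held 61, or 2.18% (1.67 to 2.79%). The mean share was 2.75% ± 0.814 (SD, n = 2). Fetal library 1 had none among 882 nuclei, which allows a share of up to 0.417% (exact binomial), and fetal library 2 had 1 among 1695.

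The nuclei came from wild-type CD1 mice, an outbred strain, and were profiled by single-nucleus ATAC-seq, in which a transposase inserts barcoded adapters where chromatin is open. Mammary cells had been sorted as EpCAM+ and Lin-, that is, epithelial and without markers of blood and other lineages, at 8 weeks of age in the adult libraries and at embryonic day 18 in the fetal ones. There were 2 biological replicates of each stage, with no transgene or treatment. The labels do not say how many mice went into a replicate. Nuclei were barcoded in wells, pooled and sorted into wells again for a further barcode, so a barcode pair can hold more than 1 nucleus; which of them did was not tested.

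The adult mammary duct is lined by an outer basal, or myoepithelial, layer and an inner luminal layer. Luminal cells fall into progenitors that lack hormone receptors, carry the receptor tyrosine kinase Kit and the ETS factor Elf5 and are primed for milk and innate defence genes, and mature hormone-sensing cells that carry the oestrogen and progesterone receptors and the pioneer factor Foxa1. Class 10 was compared with one group of each kind from the same adult libraries. Classes 3 and 7, with 921 and 805 nuclei in adult libraries 1 and 2, carried the progenitor markers. Classes 2 and 11, with 1002 and 1074 nuclei, carried the mature luminal markers. Over 10 progenitor genes the summed reads, scaled to 1000000 reads of the nuclei (RPM, used throughout for levels), were 685 and 634 in classes 3 and 7 and 234 and 232 in classes 2 and 11. Over 11 mature luminal genes they were 503 and 540 against 1286 and 1245. In this and later pairs of levels, shares, scores and read numbers of a group the first is from adult library 1 and the second from adult library 2. In pairs of log2 fold changes, medians of them or adjusted p-values the first is against classes 3 and 7 and the second against classes 2 and 11, unless stated.

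The listed nuclei of the adult libraries held 13588107 and 19304830 reads, of which class 10 held 770948 and 677586. No barcode was shared between libraries. Reads of a fragment come in pairs: 77.7% and 78.0% of the distal regions with a class 10 read had an even number of them, so read numbers overstate the number of independent molecules. Counts were summed per library and class group, which gives 2 sums a group, and the p-values measure only the spread between these libraries. How the classes were made is not given in the sources used here. They were probably made from these same nuclei, so the adjusted p-values below describe the differences between classes and do not bear on whether the class exists.

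The marker genes that came with the class belong to both lineages. Lcn2 encodes lipocalin 2, a siderophore-binding innate defence protein of luminal progenitors, and Plet1 encodes a surface protein of luminal progenitors. Cyp3a57 encodes a cytochrome P450, Krt87 a hair-type keratin and Anxa1 the phospholipid-binding protein annexin A1. The promoters of Lcn2, open in progenitors, and Ptpn5, open in mature luminal nuclei, are shown because class 10 had reads at both, that of Plet1 because it is a marker of the class, and that of Gpr39, a zinc-sensing receptor, because it was lower in class 10 than in both groups. Sequences are from RefSeq, build GRCm38.p6, the primary assembly of which is mm10, 250 bases before to 50 after the start site, 5′ to 3′ on the gene's strand. Capitals mark the AP-1 letters TGANTCA, the forkhead letters TGTTTNC or GNAAACA, and the ETS letters GGAAGT or ACTTCC, searched on both strands.
Lcn2, chr2:32387690-32387989, minus strand: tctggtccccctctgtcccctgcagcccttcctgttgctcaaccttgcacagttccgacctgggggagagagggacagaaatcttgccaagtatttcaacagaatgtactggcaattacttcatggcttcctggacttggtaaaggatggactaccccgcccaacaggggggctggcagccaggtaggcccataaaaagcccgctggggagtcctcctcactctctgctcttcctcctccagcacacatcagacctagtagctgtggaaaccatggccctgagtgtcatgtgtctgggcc
Plet1, chr9:50494275-50494574, plus strand: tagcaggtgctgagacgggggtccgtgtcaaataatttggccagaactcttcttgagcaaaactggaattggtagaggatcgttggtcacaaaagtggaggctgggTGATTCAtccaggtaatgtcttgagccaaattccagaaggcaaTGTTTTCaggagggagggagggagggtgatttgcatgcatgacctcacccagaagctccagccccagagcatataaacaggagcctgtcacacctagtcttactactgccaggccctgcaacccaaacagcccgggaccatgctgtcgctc
Ptpn5, chr7:47132549-47132848, minus strand: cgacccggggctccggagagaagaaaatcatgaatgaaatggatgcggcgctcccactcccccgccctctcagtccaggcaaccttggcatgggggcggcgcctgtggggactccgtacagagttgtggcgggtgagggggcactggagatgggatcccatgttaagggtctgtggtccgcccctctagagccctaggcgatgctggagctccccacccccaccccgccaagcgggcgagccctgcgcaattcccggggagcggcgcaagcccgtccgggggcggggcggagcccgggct
Gpr39, chr1:125676746-125677045, plus strand: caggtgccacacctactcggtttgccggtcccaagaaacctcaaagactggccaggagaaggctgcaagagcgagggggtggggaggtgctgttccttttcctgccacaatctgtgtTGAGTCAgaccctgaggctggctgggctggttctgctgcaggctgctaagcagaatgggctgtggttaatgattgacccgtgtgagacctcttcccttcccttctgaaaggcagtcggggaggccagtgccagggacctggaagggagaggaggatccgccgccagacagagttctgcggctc
Plet1 held the AP-1 letters from base 107 and the forkhead letters from base 150 of its window, Gpr39 the AP-1 letters from base 118, and the other windows shown held none of the searched letters. Another start-site window of Ptpn5 (chr7:47133635-47133934), outside the promoter region measured here, held forkhead and ETS letters and is not shown. Of 32817 promoter windows of this length, 7.81% held the AP-1, 20.5% the forkhead and 23.8% the ETS letters. A match is a description of the letters and not a bound site.

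At the 1000-base promoter region over the Lcn2 start (chr2:32387383-32388382), class 10 had 30 and 13 reads, from 19 nuclei, or 38.9 and 19.2 RPM. Classes 3 and 7 had 53.5 and 44.9 RPM and classes 2 and 11 had 1.39 and 0.611 RPM. At the Ptpn5 promoter region (chr7:47132132-47133131), which serves a tyrosine phosphatase gene, class 10 had 19 and 8 reads from 10 nuclei, or 24.6 and 11.8 RPM. Classes 2 and 11 had 18.5 and 14.3 RPM there, and classes 3 and 7 had 1 and 0 reads. Class 10 thus had reads at promoters that were nearly without reads in one luminal group or the other. Basal classes 1 and 8 had 29.7 and 22.8 RPM at the Lcn2 promoter region, so reads there do not mark progenitors alone. At the Ptpn5 promoter region they had 2.48 and 2.75 RPM. These promoters were among those picked for the largest differences between the luminal groups, so no test is given for them. At the Plet1 promoter region (chr9:50493917-50494916) the groups lay close together, with 42.8 and 20.7 RPM in class 10, 28.8 and 28.0 in classes 3 and 7, and 24.4 and 21.5 in classes 2 and 11.

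Over the gene span with 2000 bases on either side, Lcn2 (chr2:32384637-32387739) reached 118 and 56.1 RPM in class 10, against 147 and 104 RPM in classes 3 and 7 and 4.18 and 1.34 RPM in classes 2 and 11. Both class 10 values lay above all values of classes 2 and 11 and below that of classes 3 and 7 in the same library. The log2 fold change over classes 2 and 11 was 5.09 ± 0.43 (SE; edgeR quasi-likelihood test with Benjamini-Hochberg adjustment, adjusted p = 0.000368), and it stayed called under every alternative. Plet1 had 324 and 158 RPM in class 10, 303 and 184 in classes 3 and 7, and 68.2 and 55.7 in classes 2 and 11. Its log2 fold change over classes 2 and 11 was 1.98 ± 0.27 (edgeR adjusted p = 0.00712). That call was lost without the sum of classes 2 and 11 of library 1 (adjusted p = 0.0861) or of library 2 (0.0993), and when nuclei with a read were counted in place of reads (0.083). Cyp3a57 went the other way, with 37.6 and 41.3 RPM in class 10, 2.13 and 5.06 in classes 3 and 7, and 57.4 and 58.1 in classes 2 and 11. It was higher than in classes 3 and 7 by 3.43 ± 0.39 on the log2 scale (edgeR adjusted p = 0.00407). Without the sum of classes 3 and 7 of library 1 the adjusted p was 0.0617.

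Krt87 had 37.6 and 60.5 RPM in class 10, between 26.4 and 20.8 RPM in classes 3 and 7 and 78.9 and 67.2 RPM in classes 2 and 11, and passed the test against neither (edgeR adjusted p = 0.115 and 0.386). With the library as a replicate block it was called higher than in classes 3 and 7. Anxa1 was the one marker at its highest in class 10. Its 182 and 204 RPM lay above 168 and 157 in classes 3 and 7 and 153 and 142 in classes 2 and 11, without overlap, but the log2 differences of 0.26 ± 0.14 and 0.40 ± 0.14 missed the threshold (edgeR adjusted p = 0.443 and 0.254). Over all 4 libraries Anxa1 was highest in class 10 of the 14 classes, at 192 RPM, with class 3 next at 172 RPM. Lcn2 and Plet1 were second in class 10, after class 7, Krt87 was second after class 2, and Cyp3a57 followed classes 2 and 11. These genes came with the class as its markers, so their levels and tests describe it and are no independent support for its label.

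Among 17152 gene spans tested, 103 were higher in class 10 than in classes 3 and 7 (0.601%) and 32 lower (0.187%), and 85 were higher than in classes 2 and 11 (0.496%) and 6 lower (0.035%), by the edgeR test; 0.787% and 0.531% were called in either direction. In 11 genes (0.0641%) class 10 was called against both in opposite directions. With the library as a replicate block, the counts were 292 and 143 and, against classes 2 and 11, 242 and 69. Leaving out 1 library sum moved them both ways. Without the sum of classes 3 and 7 of library 1, 1 gene was called against those classes (3 without their library 2), and without that of classes 2 and 11 of library 1, 2 genes were called against those (10 without their library 2). Without class 10 of library 1, 176 genes were higher and 84 lower than in classes 3 and 7 and 110 and 27 against classes 2 and 11; without class 10 of library 2 the counts were 119 and 66, and 119 and 34.

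Of the 10 luminal progenitor genes, all tested, 3 were higher in class 10 than in classes 2 and 11 (0.496% of all genes were) and none was lower. The 3 were Kit, Wfdc18, a gene of the whey acidic protein family, and Trf, which encodes transferrin. Kit had 64.9 and 81.2 RPM in class 10, 138 and 140 in classes 3 and 7, and 4.70 and 6.23 in classes 2 and 11. Its 2 class 10 values lay apart from those of both groups. The log2 fold change over classes 2 and 11 was 3.71 ± 0.26 (edgeR adjusted p = 9.18e-05), and the one against classes 3 and 7 was -0.93 ± 0.21 (adjusted p = 0.0683), a call that DESeq2 and the replicate block made. Wfdc18 had 15.6 and 16.2 RPM in class 10 against 1.39 and 0.856 RPM in classes 2 and 11 (log2 fold change 3.84 ± 0.49, edgeR adjusted p = 0.00525), and 33.9 and 30.9 RPM in classes 3 and 7. Trf had 63.6 and 60.5 RPM in class 10, 86.5 and 82.8 in classes 3 and 7 and 23.0 and 19.4 in classes 2 and 11 (1.57 ± 0.21 over the latter, adjusted p = 0.0069). Both calls were lost without a sum of classes 2 and 11: for library 1 the adjusted p was 0.0546 for Wfdc18 and 0.072 for Trf, and for library 2 it was 0.0555 and 0.0966. With nuclei of 6000 to 15000 reads alone, Wfdc18 was also not called (adjusted p = 0.371).

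Against classes 3 and 7, edgeR called none of the 10 progenitor genes, and DESeq2 called Kit lower. At an unadjusted p under 0.05, 6 were lower and none was higher. The share of all tested genes at that threshold was not counted. Unadjusted counts of this and later gene lists therefore have no background and are a description. In both libraries 9 of the 10 lay between the groups, against 14.5% of all tested genes. By edgeR, 9 of these 10 were higher in classes 3 and 7 than in classes 2 and 11, as were 1954 of all 17152 tested genes. A level in between is likelier across such a gap, so the 14.5% is not a like background. The median log2 fold change of the list was -0.47 against classes 3 and 7 and 0.78 against classes 2 and 11, beside -0.02 and -0.02 over all tested genes. Elf5 itself had 48.0 and 38.4 RPM, between 59.9 and 63.0 RPM and 25.2 and 23.8 RPM, and was called against neither group (edgeR adjusted p = 0.34 and 0.148). The casein gene Csn3 had 10.4 and 16.2 RPM, between 20.5 and 31.1 and 2.09 and 4.64, and was called higher than in classes 2 and 11 with the replicate block, though not by edgeR without it or by DESeq2.

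Of the 11 mature luminal genes, 3 were higher in class 10 than in classes 3 and 7 (0.601% of all genes were) and none was lower. They were the progesterone receptor gene Pgr, the pioneer factor gene Foxa1 and the EGF receptor ligand gene Areg. Pgr had 123 and 73.8 RPM in class 10, 29.2 and 38.9 in classes 3 and 7, and 189 and 188 in classes 2 and 11 (log2 fold change over classes 3 and 7 of 1.54 ± 0.23, edgeR adjusted p = 0.0101). Foxa1 had 143 and 121 RPM in class 10, 65.0 and 55.0 in classes 3 and 7, and 162 and 159 in classes 2 and 11 (1.15 ± 0.16, adjusted p = 0.00959). Areg had 62.3 and 38.4 RPM in class 10, 12.1 and 11.1 in classes 3 and 7, and 80.6 and 82.1 in classes 2 and 11 (2.13 ± 0.26, adjusted p = 0.00448). For each of the 3 genes the class 10 values fell between the groups without overlap. Each call was lost without either sum of classes 3 and 7: without library 1 the adjusted p was 0.203 for Pgr, 0.135 for Foxa1 and 0.101 for Areg, and without library 2 it was 0.0731, 0.104 and 0.0737. Foxa1 was also not called without the flanks of the gene (0.0671) or by nuclei with a read (0.0526).

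The oestrogen receptor gene Esr1 had 178 and 133 RPM in class 10, between 89.5 and 97.6 and 211 and 240, and missed the edgeR threshold against classes 3 and 7 (adjusted p = 0.0686), where DESeq2 and the replicate block called it. Against classes 2 and 11 edgeR called none of the 11, and DESeq2 and the block called Pgr lower. At an unadjusted p under 0.05, with the share of all genes again not counted, 6 were lower. In both libraries 8 of the 11 lay between the groups, against 14.5% of all tested genes. By edgeR, all 11 were lower in classes 3 and 7 than in classes 2 and 11, as were 2002 of all 17152 tested genes. The 14.5% is thus not a like background here either. The median log2 fold change was 0.71 against classes 3 and 7 and -0.53 against classes 2 and 11. The RANK ligand gene Tnfsf11, a progesterone target, lay below both groups in both libraries, at 6.49 and 8.85 RPM beside 7.24 and 10.5 and 20.2 and 20.9 (not called). It was 1 of the 11 to do so, beside 15.1% of all tested genes. The 7 genes common to luminal cells, the keratins Krt8, Krt18 and Krt19, claudins and Epcam, gave no call against either group by edgeR or DESeq2 and none at an unadjusted p under 0.05, with medians of -0.01 and 0.08. Their summed level was 629 and 552 RPM in class 10, 648 and 586 RPM in classes 3 and 7, and 587 and 513 RPM in classes 2 and 11.

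**Figure D1:**
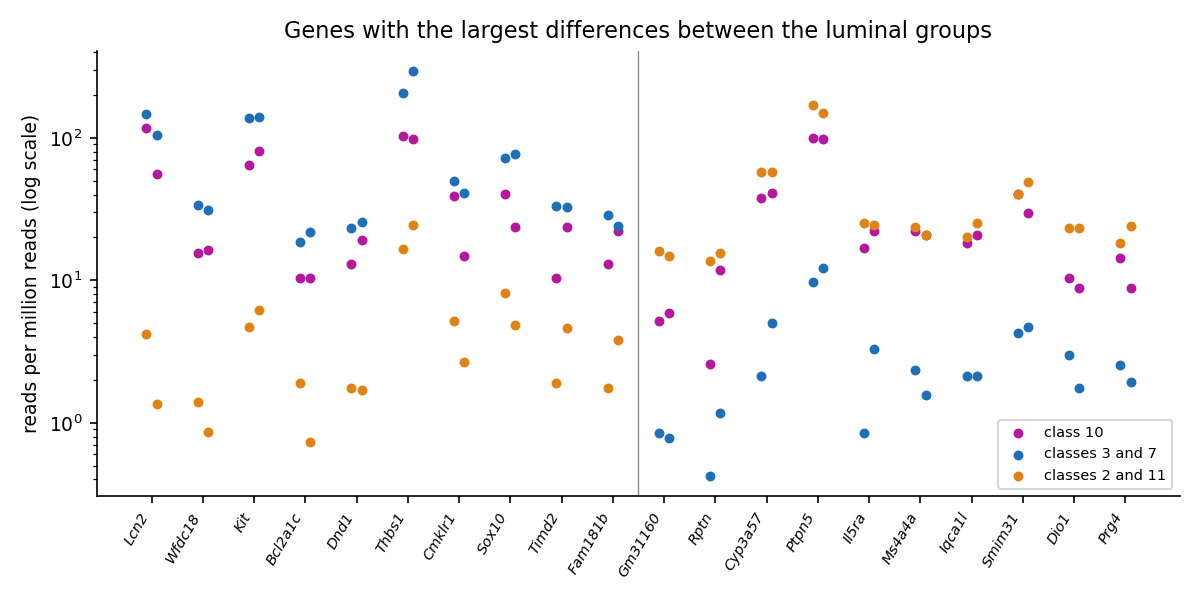
RPM (log scale) over gene spans with 2000 bases on either side, for the 10 genes with the largest differences in each direction between classes 3 and 7 and classes 2 and 11, chosen without class 10; each point is 1 library. Class 10 lies between the groups for all 20 genes in both libraries, as for Kit at 64.9 and 81.2 and Ptpn5 at 99.9 and 97.4, and close to classes 2 and 11 for Ms4a4a, at 22.1 and 20.7.

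The 20 genes plotted were chosen for the largest gaps between the luminal groups, by those groups' own sums, and class 10 lay between the groups in both libraries in each of them. Lcn2, Kit, Wfdc18 and Cyp3a57 were among them and also among the marker genes and lists tested above, so those tests are not independent of this choice; the others are given as a description with no test. Ptpn5 had 99.9 and 97.4 RPM in class 10, 9.80 and 12.3 in classes 3 and 7, and 171 and 151 in classes 2 and 11. Thbs1, which encodes the matrix protein thrombospondin 1, had 104 and 97.4 RPM in class 10, 206 and 295 in classes 3 and 7, and 16.5 and 24.3 in classes 2 and 11. The SoxE factor gene Sox10 had 40.2 and 23.6 RPM, between 72.2 and 77.4 and 8.18 and 4.89. In each of these genes both class 10 values were intermediate. Gaps this wide make a level in between likely for other nuclei too. Basal classes 1 and 8 lay between the groups at some of the 20, such as Kit (9.91 and 11.0 RPM). At others they did not, such as Cmklr1 (77.4 and 79.4 RPM, above both groups). Ms4a4a, a membrane protein gene, had 22.1 and 20.7 RPM in class 10, beside 23.9 and 20.8 in classes 2 and 11 and 2.34 and 1.56 in classes 3 and 7.

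In distal regions where one luminal group had no read, class 10 had reads in each of the 6 picked. Within Wnt5b (chr6:119513534-119514533), a non-canonical Wnt ligand gene, class 10 had 19 and 6 reads from 10 nuclei, classes 3 and 7 had 125 and 112 reads, and classes 2 and 11 had none. With 3 read pairs, that is 6 reads, taken for that zero in classes 2 and 11 as a whole, the class 10 level was at least 40.1-fold higher, and it was 0.716 times that of classes 3 and 7 over both libraries, with 24.6 and 8.85 RPM in class 10 against 26.6 and 21.8 RPM. Within Gatb (chr3:85579516-85580515) class 10 had 30 and 17 reads from 20 nuclei, classes 2 and 11 had 208 and 217, and classes 3 and 7 had none, at least 53.2-fold lower. The class 10 level there, 38.9 and 25.1 RPM, was above that of classes 2 and 11 in library 1 (36.2) and below it in library 2 (26.5). The regions in Plrg1 (chr3:83059025-83060024) and 46693 bases from En1 (chr1:120654684-120655683) also had no read in classes 3 and 7, with 18 and 15, and 15 and 23, reads in class 10. The region 275978 bases from Osr1 (chr12:9857478-9858477) had 117 and 99 reads in classes 3 and 7, none in classes 2 and 11, and 15 and 2 in class 10, or 19.5 and 2.95 RPM, mostly from library 1. The lowest was a region within Clnk (chr5:38785714-38786713), where class 10 had 2 and 0 reads against 102 and 118 in classes 3 and 7, from 1 nucleus. These regions too were picked by the 2 groups' own reads. Basal classes 1 and 8 had 18.6 and 24.8 RPM at the Osr1 region and 6.19 and 4.01 RPM at the Wnt5b region. Reads at these regions thus do not mark progenitors alone. At the others the basal classes had at most 1.25 RPM.

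Each nucleus was then placed by its reads in 14011 distal regions higher in classes 3 and 7 than in classes 2 and 11 and 16538 higher in the latter (edgeR fit without class 10; 22.1% and 26.1% of 63299 tested). The share of these lineage reads that fell in progenitor regions had a median of 51.6% and 46.8% in class 10, 82.8% and 83.3% in classes 3 and 7, and 22.8% and 22.2% in classes 2 and 11. The reads of the latter groups chose the regions, and class 10 took no part in that choice. The classes themselves were probably made from these same nuclei, so the shares of all groups are a description. In class 10 the lowest and highest shares were 33.6% and 71.2% in library 1 and 33.3% and 68.7% in library 2. All 143 nuclei lay below the 5th percentile of classes 3 and 7 and above the 95th percentile of classes 2 and 11 of their library. The full ranges overlapped. The lowest share in classes 3 and 7 was 58.0% and 65.0%, and the highest in classes 2 and 11 was 63.3% and 71.4%. Within the 5th to 95th percentile of class 10 there were 1 and 0 nuclei of classes 3 and 7 and 3 and 1 nuclei of classes 2 and 11.

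**Figure D2:**
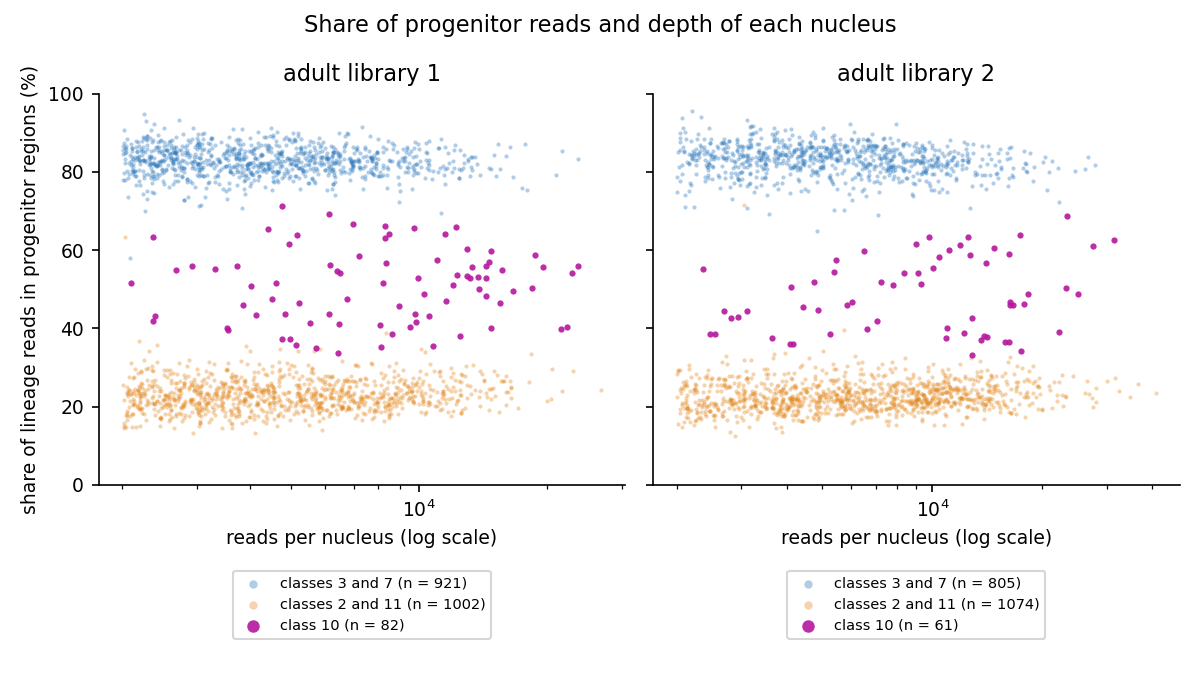
Share of lineage reads in progenitor regions (percent) against reads per nucleus (log scale), 1 point a nucleus, by adult library. Class 10 nuclei lie between the bulk of the other groups, from 33.6% to 71.2% in library 1 and from 33.3% to 68.7% in library 2, at all depths. Some nuclei of the other groups fall in this range too.

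The fewest progenitor reads in a class 10 nucleus were 125 and 127 and the fewest mature luminal reads 137 and 151. Nuclei of the luminal groups also held reads of both lineages, with at least 16 and 16 mature luminal reads in classes 3 and 7 and at least 46 and 39 progenitor reads in classes 2 and 11. Class 14, the other mixed class of the adult libraries, had median shares of 40.7% and 41.3%, and basal classes 1 and 8 had 75.9% in each library. Stromal-like class 6 had 61.5% and 61.4%, within the range of class 10, so the share alone does not mark luminal nuclei; its lineage reads were a median of 8.82% and 8.72% of a nucleus's reads, against 18.4% and 17.7% in class 10.

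The pair of genes Lcn2 and Kit, and the pair Ptpn5 and Cyp3a57, were used to count nuclei with both kinds of read. A read at Lcn2 or Kit was present in 48.8% and 37.7% of class 10 nuclei, 44.6% and 44.3% of nuclei of classes 3 and 7, and 2.40% and 2.61% of nuclei of classes 2 and 11. A read at Ptpn5 or Cyp3a57 was present in 40.2% and 41.0% of class 10 nuclei, 2.82% and 5.34% in classes 3 and 7, and 42.7% and 47.7% in classes 2 and 11. The 4 genes are among those picked because one luminal group has few reads there, so the low shares in the luminal groups follow from the choice and are given as a description. Reads of both pairs occurred together in 20 of 82 and 10 of 61 class 10 nuclei, 24.4% and 16.4%. The corresponding shares were 1.19% and 2.86% in classes 3 and 7 and 1.2% and 1.3% in classes 2 and 11. These shares were not thinned to equal depth, and the deeper class 10 nuclei had more chances of a read.

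**Figure D3:**
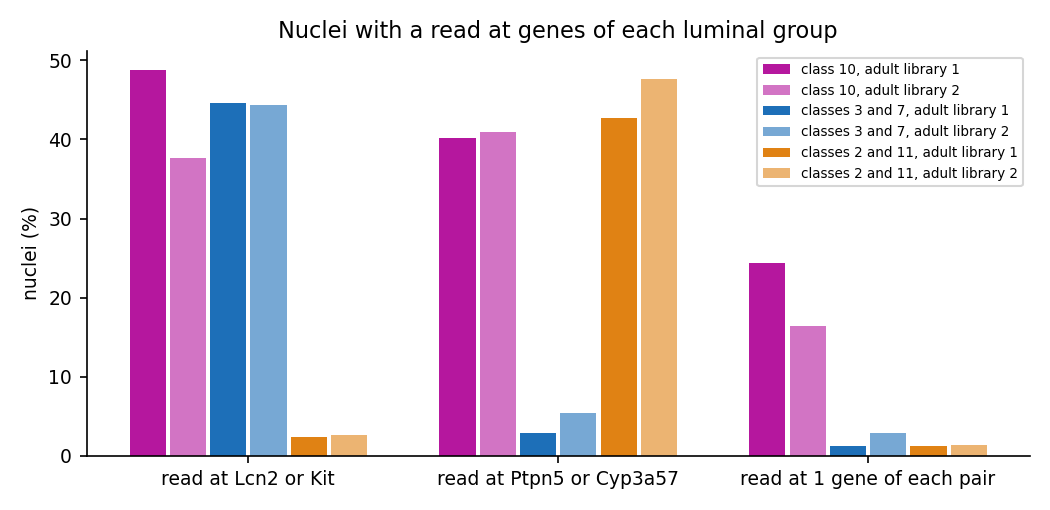
Percent of nuclei with a read at Lcn2 or Kit, at Ptpn5 or Cyp3a57, and at 1 gene of each pair, by class group and adult library. Bars of class 10 are near those of each luminal group for that group's own genes, and reads of both pairs occurred in 24.4% and 16.4% of its nuclei against at most 2.86% in the other groups, whose low values follow from how the genes were picked.

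On a line from 0% at the summed level of classes 2 and 11 to 100% at that of classes 3 and 7 in the same library, class 10 stood near the middle for each set of regions. Over the progenitor distal regions it stood at 47.5% and 42.9%, or 45.2% ± 3.26 (SD, n = 2), and over the mature luminal distal regions at 47.0% and 47.4%, or 47.2% ± 0.278. At 1163 progenitor and 1084 mature luminal promoter regions (7.64% and 7.12% of those tested) it stood at 44.3% ± 2.32 and 51.0% ± 1.64. At 1961 and 2013 gene spans (11.1% and 11.4%) it stood at 46.9% ± 4.55 and 48.2% ± 2.92. Reads rather than nuclei are averaged here, so deep nuclei weigh more. Among all 17152 tested genes, class 10 lay between the groups in both libraries in 2480, above both groups in 1809 and below both in 2593.

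**Figure D4:**
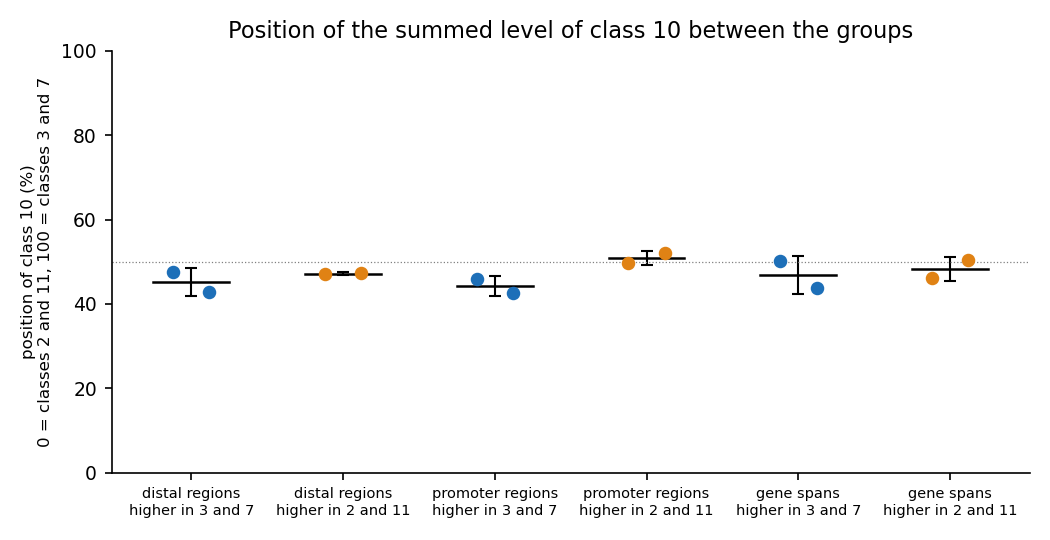
Position of the summed class 10 level (percent) on the line from classes 2 and 11 (0) to classes 3 and 7 (100), for regions of each lineage by kind of feature; points are the 2 adult libraries, black lines their mean and SD, and the dotted line the midpoint. Means run from 44.3% to 51.0%.

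Motif scores of several factor families were intermediate in class 10. The deposited chromVAR table gives each nucleus a deviation of accessibility at regions holding a factor's motif, centred near 0. Forkhead and AP-1 scores of class 10 lay above those of classes 3 and 7 and below those of classes 2 and 11, and most ETS, Sox, NFI and CEBP scores lay the other way round. Mean scores of the class were tested over 427 motif columns, some of which are identical, with limma. Against classes 3 and 7, 96 were higher and 86 lower in class 10 (42.6% called), and against classes 2 and 11, 42 were higher and 38 lower (18.7%). In 59 (13.8%) class 10 was called against both in opposite directions, that is, in between. Leaving out any 1 of the 6 sums gave 69 to 218 calls against classes 3 and 7, lowest without their library 2, and 11 to 119 against classes 2 and 11, lowest without their library 2.

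Foxa1, the pioneer factor of hormone-sensing cells, scored 1.88 and 2.68 in class 10, -0.98 and -1.13 in classes 3 and 7, and 3.82 and 4.36 in classes 2 and 11. The values of the groups did not overlap, and class 10 was higher by 3.34 ± 0.28 (SE; limma with Benjamini-Hochberg adjustment, adjusted p = 0.000532) than classes 3 and 7 and lower than classes 2 and 11, by -1.80 ± 0.28 (adjusted p = 0.0154). Foxa1 and Foxa3, the 2 forkhead motifs of the fixed list in the table, were both called against both groups. Of 10 AP-1 and AP-1-like motifs, all 10 were higher than in classes 3 and 7 (22.5% of all motif columns were) and 9 were lower than in classes 2 and 11 (8.9% were), Fosl2 being the exception. Fos scored 1.43 and 1.72 in class 10, -0.36 and -0.76 in classes 3 and 7, and 2.45 and 3.13 in classes 2 and 11. Its difference of -1.21 ± 0.24 from classes 2 and 11 (limma adjusted p = 0.024) was lost without class 10 of library 1 (adjusted p = 0.0829) or without classes 2 and 11 of library 2 (0.0651).

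Elf5, the ETS factor of the progenitor and alveolar lineage, scored 0.81 and 0.68 in class 10, 1.79 and 1.60 in classes 3 and 7, and -0.63 and -0.78 in classes 2 and 11. Class 10 was lower than classes 3 and 7, by -0.95 ± 0.10 (limma adjusted p = 0.000884), and higher than classes 2 and 11 by 1.45 ± 0.10 (adjusted p = 0.0013). Of the 5 ETS motifs 4 were called in this way, all but Spdef, as were 2 of 3 Sox motifs, all but Sox10, and 3 of 4 NFI motifs, 2 of them identical, all but Nfix. Over all motif columns 20.1% were lower than in classes 3 and 7 and 9.84% higher than in classes 2 and 11. Sox4 scored -0.94 and -0.92 in class 10, 0.29 and 0.37 in classes 3 and 7, and -1.59 and -1.70 in classes 2 and 11 (adjusted p = 0.000173 and 0.00302). Cebpb, of a family of basic leucine zipper factors, scored -0.45 and -0.30, 0.62 and 0.62, and -0.98 and -1.19 in the same order, and all 3 CEBP columns, 2 of them identical, were called against both groups. The NF-kB motif Nfkb1 scored 1.41 and 0.92 in class 10 beside 1.41 and 1.41 in classes 3 and 7 and 0.62 and 0.07 in classes 2 and 11. It was called against the latter alone (0.82 ± 0.22, limma adjusted p = 0.0444), and not without class 10 of library 1 (0.126), either sum of classes 3 and 7 (0.103) or classes 2 and 11 of library 2 (0.189). With nuclei of 6000 to 15000 reads its limma adjusted p was 0.0529, and with medians of nuclei it was 0.0552.

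The hormone receptor motifs Esr1 and Pgr were each called against one group alone. Esr1 scored 0.64 and 0.94 in class 10, 0.28 and 0.24 in classes 3 and 7 and 0.68 and 0.88 in classes 2 and 11, and was called against classes 3 and 7 alone (limma adjusted p = 0.0134). Pgr scored 0.21 and 0.20, 0.24 and 0.21, and -0.13 and -0.12 in the same order, and was called against classes 2 and 11 alone (adjusted p = 0.0187). The Esr1 call was lost without classes 3 and 7 of library 1 (0.0686) or 2 (0.0994). The Pgr call was lost without either sum of classes 3 and 7 (0.0706) or classes 2 and 11 of library 1 (0.0808) or 2 (0.129).

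No motif was called higher than both groups by limma (0.0%; 1 was at an unadjusted p under 0.05 in both). The p53-family motifs Trp63 and Trp73, of the factor that marks basal cells and its relative, were called lower than both (0.468%). Trp63 scored -1.35 and -1.38 in class 10, -0.98 and -0.93 in classes 3 and 7, and -1.02 and -1.11 in classes 2 and 11, without overlap (limma adjusted p = 0.00421 and 0.0283). Trp73 scored -1.46 and -1.71, -1.10 and -1.11, and -1.10 and -1.22 (0.00912 and 0.0305). With medians of nuclei in place of means, no motif was called lower than both groups. With nuclei of 6000 to 15000 reads in all groups, 2 other motif columns were called lower than both groups and none higher. Trp63 and Trp73 were not called there (limma adjusted p for Trp63 0.119 and 0.419, for Trp73 0.0595 and 0.0642). Against classes 2 and 11 both were also lost without any sum of classes 3 and 7 (adjusted p = 0.0938 for each motif) or of classes 2 and 11 (library 1: 0.161 and 0.124; library 2: 0.11 and 0.0865). Against classes 3 and 7, Trp63 was lost without their library 2 (0.0595) and Trp73 without either library of theirs (0.0649 and 0.0719).

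**Figure D5:**
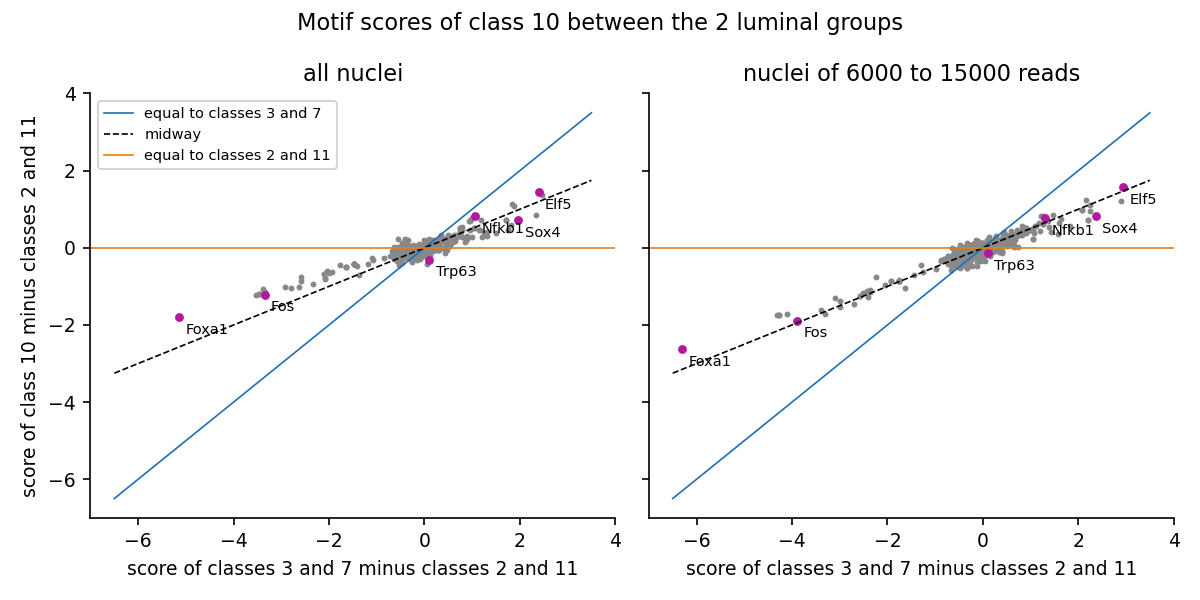
Difference in mean chromVAR score between class 10 and classes 2 and 11 against that between classes 3 and 7 and classes 2 and 11, 1 point a motif column, for all nuclei (left) and nuclei of 6000 to 15000 reads (right). Points between the horizontal line and the solid diagonal lie between the groups; they follow the dashed midway line more closely on the right, where the median position was 47.5% against 33.4% on the left.

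The position of the motif scores differed when nuclei were restricted by depth. For the 68 motifs whose luminal groups differed by at least 0.8, class 10 lay between the groups in every one, at a median of 33.4% (18.4 to 78.3%) of the way from classes 2 and 11 to classes 3 and 7. With nuclei of 6000 to 15000 reads the median was 47.5% (21.4 to 66.8%). Class 10 kept 46 and 27 nuclei in this range and was still deeper, with medians of 9859 and 10921 reads. The medians were 7896 and 8432.5 reads in classes 3 and 7 and 8457.5 and 9398.5 in classes 2 and 11. Progenitor-side motifs moved from 39.9% to 47.1% and mature-side motifs from 32.8% to 48.0%. Within class 10 the scores varied widely from nucleus to nucleus, with Foxa1 from -0.77 to 4.91 between the 5th and 95th percentiles in library 1 and from -0.31 to 6.0 in library 2. Classes 2 and 11 spread about as far, from 1.24 to 7.00 and from 1.36 to 8.07. Classes 3 and 7 spread less, from -2.63 to 0.65 and from -3.07 to 0.59. As a description over 82 and 61 nuclei of the same libraries, Spearman's rho of a nucleus's progenitor share was -0.57 and -0.44 with its Foxa1 score, -0.52 and -0.46 with Fos, 0.42 and 0.62 with Elf5, and 0.08 and 0.20 with its reads. The share's rho was weaker with Sox4, at 0.32 and 0.29, and with Nfkb1, at 0.28 and 0.35. The rho of the scores themselves with reads was 0.33 and 0.43 for Foxa1, 0.09 and 0.09 for Fos, and 0.17 and 0.23 for Elf5. For Sox4 it was -0.27 and -0.39, and for Nfkb1 0.32 and 0.09. The share and the scores come from the same reads.

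The summed level of a pool of nuclei lies between the levels of its parts, so regions beyond both groups were counted. Of 46408 distal regions tested with edgeR, 2899 were higher (6.25%) and 1431 lower (3.08%) in class 10 than in classes 3 and 7, 9.33% together, and 1486 were higher (3.2%) and 437 lower (0.942%) than in classes 2 and 11, 4.14% together. One region was called higher than both (0.00215%, with 52 at an unadjusted p under 0.05 in both, and 7 by DESeq2). Lower than both were 60 (0.129%, with 1442 at an unadjusted p under 0.05 in both, and 77 by DESeq2), and 177 were in between (0.381%). Features of each kind were tested by their mean reads over the 6 sums, most of which came from the luminal groups. A feature open mainly in class 10 could thus rarely be tested, so counts higher and lower than both are not comparable. Class 10 had a median of 4 and 3 reads in a tested distal region; among the 13386 regions that averaged 30 or more reads over the 6 sums, 2 were higher and 17 lower than both. TMM scaling placed the median log2 fold change of distal regions at -0.22 and -0.28, and scaling by total reads at 0.06 and -0.09. By total reads, 3644 were higher and 534 lower than in classes 3 and 7, 1754 and 213 against classes 2 and 11, 4 were higher and 24 lower than both. With the replicate block the counts against the groups were 1953 and 643, and 1017 and 163, with none higher and 23 lower than both. Counting nuclei with a read gave 1756 and 692, 897 and 206, and none higher and 9 lower than both. Leaving out any 1 of the 6 sums gave 1549 to 2920 regions called against classes 3 and 7 and 502 to 1205 against classes 2 and 11, with 0 to 2 higher and 2 to 77 lower than both.

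The region higher than both, at chr8:106671539-106672538, was 1292 bases from Cdh1, the E-cadherin gene. Class 10 had 22 and 10 reads there, from 15 nuclei, or 28.5 and 14.8 RPM, against 7.03 and 4.08 RPM in classes 3 and 7 and 5.92 and 5.50 RPM in classes 2 and 11. The log2 fold changes were 1.70 ± 0.50 and 1.75 ± 0.49 (edgeR adjusted p = 0.0293 and 0.0339). Basal classes 1 and 8 had 2 reads in each library and classes 6 and 14 none. The call against both was lost with the replicate block (adjusted p = 0.0597 and 0.0873), with nuclei of 6000 to 15000 reads (0.186 and 0.263), and when nuclei with a read were counted (0.0506 and 0.0668). The log2 fold changes in these settings were 1.68 and 1.68, 1.64 and 1.46, and 1.56 and 1.57. With regions of a mean of 3 or more reads tested it was also lost (0.0786 and 0.0978). Without class 10 of library 1 the log2 fold changes were 1.10 and 1.14 (0.279 and 0.283), and the call was further lost without classes 2 and 11 of library 1 (0.0549 and 0.189) or library 2 (0.0514 and 0.186), and, against classes 3 and 7, without their library 1 (0.0588) or library 2 (0.165). Its highest deposited co-accessibility score with a promoter region was 0.103.

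Of the 60 regions lower than both, 29 had no read in class 10 and 13 had 1 to 4; in all, 2550 of the 46408 tested regions had no class 10 read. The 4 with the largest difference were at 0 in class 10. A region within Lin54 (chr5:100498054-100499053), a subunit gene of a cell cycle repressor complex, had 59 and 90 reads in classes 3 and 7 and 83 and 79 in classes 2 and 11, at least 3.66-fold and 2.81-fold higher with 3 read pairs over class 10 as the floor. A region within Anks6 (chr4:47014676-47015675) had 65 and 77, and 53 and 53, reads (at least 3.49-fold and 1.84-fold). The regions 42918 bases from Sspn (chr6:146008143-146009142) and 74494 bases from Mtss1 (chr15:59158450-59159449) were at least 1.82-fold and 2.01-fold higher in classes 3 and 7 and 2.08-fold and 1.85-fold higher in classes 2 and 11. Leaving out class 10 of library 1 ended the call against classes 2 and 11 for all 4 (edgeR adjusted p = 0.0547 for Lin54, 0.0938 for Anks6, 0.093 for Sspn and 0.122 for Mtss1). Leaving out class 10 of library 2 ended it for Anks6 (0.0677), Sspn (0.0645) and Mtss1 (0.0949), and leaving out classes 2 and 11 of library 1 did so for Anks6 (0.0759), Sspn (0.0573) and Mtss1 (0.0852), and of library 2 for Sspn (0.0862) and Mtss1 (0.107). Against classes 3 and 7, the Sspn and Mtss1 calls were lost without class 10 of library 1 (0.0619 and 0.0653) or library 2 (0.055 and 0.06), and Mtss1 without classes 3 and 7 of library 1 (0.0583). With nuclei of 6000 to 15000 reads the calls were lost against classes 2 and 11 for Anks6 (0.0796) and against classes 3 and 7 and classes 2 and 11 for Sspn (0.124 and 0.111) and Mtss1 (0.145 and 0.0871), and by nuclei with a read for Mtss1 against classes 2 and 11 (0.069).

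At promoters, 62 of 13919 regions were higher (0.445%) and 15 lower (0.108%) in class 10 than in classes 3 and 7, 0.553% together. Against classes 2 and 11, 56 were higher (0.402%) and 14 lower (0.101%), 0.503% together. None was called against both in opposite directions (0.0%). None was higher than both by edgeR (0.0%, with 142 at an unadjusted p under 0.05, and none by DESeq2). Lower than both were 2 (0.0144%, with 392 at an unadjusted p under 0.05, and none by DESeq2). Without the class 10 sum of library 1 or 2, when the other is assumed to vary like the remaining groups, 14 or 9 promoter regions were higher and 87 or 73 lower than both; without any other sum there were none. The Gpr39 promoter region (chr1:125676305-125677304) had 2 and 2 reads in class 10, or 2.59 and 2.95 RPM, against 26.2 and 21.8 RPM in classes 3 and 7 and 16.5 and 14.1 RPM in classes 2 and 11 (fitted log2 fold changes -3.05 ± 0.59 and -2.49 ± 0.62, edgeR adjusted p = 0.00163 and 0.0408). The 4 class 10 reads came from 2 nuclei and are under the floor of 3 read pairs, against which the other groups were 5.77-fold and 3.64-fold higher. The promoter region of Me2, a mitochondrial malic enzyme gene, had 7.78 and 13.3 RPM in class 10 against 29.4 and 33.4, and 34.6 and 26.9 (-1.55 ± 0.39 and -1.59 ± 0.39, adjusted p = 0.0413 and 0.035). DESeq2 called neither lower than both (Gpr39 against classes 2 and 11, adjusted p = 0.145; Me2, 0.116 and 0.0858). Leaving out 1 of the 6 sums ended the Gpr39 call against classes 2 and 11 in 5 of the 6 cases, with adjusted p from 0.0786 to 0.206, the exception being class 10 of library 2. The same 5 omissions ended both Me2 calls, with adjusted p from 0.0569 to 0.306.

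No gene span was called higher or lower than both by edgeR (0.0% each; 95 higher and 278 lower at an unadjusted p under 0.05) or by DESeq2. With the replicate block 1 gene was higher, Dpy19l2, and 1 lower, Zfp609. Dpy19l2 had 13 and 69.4 RPM in class 10, 9.59 and 14.6 in classes 3 and 7, and 4.70 and 14.4 in classes 2 and 11, so that its excess lay mainly in library 2. Zfp609 had 51.9 and 36.9 RPM in class 10, 79.3 and 82.8 in classes 3 and 7, and 91.0 and 79.4 in classes 2 and 11. Its values did not overlap (edgeR with the block, adjusted p = 0.0328 and 0.0266). Class 10 was also set against the pooled reads of both luminal groups of the same library, a comparison chosen after seeing the data. No distal region, promoter region or gene span was called by edgeR (0.0% each). Here the sums were scaled by total reads; with TMM and with the replicate block edgeR also called none. At an unadjusted p under 0.05, 991 of 46408 distal regions were higher and 2725 lower by total reads. The counts were 603 and 3807 with TMM and 393 and 767 with the replicate block. For promoter regions they were 289 and 637, 405 and 719, and 141 and 408 in the same order. For gene spans they were 240 and 487, 330 and 530, and 222 and 491. DESeq2 gave 390 and 2743 distal regions, 587 and 675 promoter regions, and 136 and 150 gene spans. Each side had 2 sums, and class 10 had a median of 4 and 3 reads in a tested distal region. The absence of edgeR calls therefore does not show that class 10 and the pool were alike. DESeq2 called 1 promoter region, that of the pyrophosphatase gene Ppa2 (chr3:133309508-133310507), with 47 and 28 reads against 271 and 323 in the pool (log2 fold change 1.06 ± 0.22, DESeq2 adjusted p = 0.0269), and no distal region or gene.

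The summed levels of basal and stromal markers in class 10 are given beside those in the classes of such cells, against which class 10 was not tested. The 11 basal genes, of which 10 were tested, gave no call by edgeR or DESeq2; at an unadjusted p under 0.05, 1 was lower than in classes 3 and 7 and 2 higher than in classes 2 and 11. Their summed level was 256 and 288 RPM in class 10, 325 and 322 in classes 3 and 7, 224 and 224 in classes 2 and 11, and 1310 and 1123 in basal classes 1 and 8. The basal keratin gene Krt5 was at 0 and 7.38 RPM in class 10, and Tagln, named after its values were seen, at 31.1 and 8.85 RPM, in library 1 above the 29.1 RPM of classes 1 and 8. The 8 stromal genes, 7 of them tested, summed to 118 and 128 RPM in class 10, 120 and 121 in classes 3 and 7, 143 and 135 in classes 2 and 11, and 634 and 595 RPM in stromal-like class 6. None was called against either luminal group by edgeR or DESeq2; 1 was lower than in classes 2 and 11 at an unadjusted p under 0.05. The immune (5 of 7 tested), endothelial (4), epidermal (4 of 6) and cycling (6) genes gave no edgeR or DESeq2 call either; at an unadjusted p under 0.05, 1 endothelial gene was higher than in classes 3 and 7 (Kdr) and 1 other was higher than in classes 2 and 11 (Pecam1), both named after their values were seen. The 4 endothelial genes had median log2 fold changes of -0.27 and -0.23. Of these 4, 2 lay below both groups in both libraries, against 15.1% of all tested genes. Their summed level was 104 and 108 RPM, beside 105 and 117 in classes 3 and 7 and 106 and 89.3 in classes 2 and 11. The summed level of the epidermal genes was 55.8 and 75.3 RPM in class 10, 53.3 and 45.9 in classes 3 and 7 and 53.8 and 47.1 in classes 2 and 11. That of the cycling genes was 141 and 164 RPM in class 10, 128 and 120 in classes 3 and 7 and 139 and 127 in classes 2 and 11, and 3 of these 6 genes lay above both groups in both libraries, against 10.5% of all tested genes. Of these 3 groups class 10 had the highest sums of both lists. In stromal-like class 6 they were 56.8 and 24.2 RPM for the epidermal and 170 and 145 RPM for the cycling genes. The immune genes, at 109 and 88.5 RPM, were at 108 and 107 in classes 3 and 7 and 105 and 85.1 in classes 2 and 11.

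Few innate defence and milk genes were called. Of 15 tested defence genes, 4 lay between the groups in both libraries (14.5% of all tested genes did), as did 4 of 7 tested milk genes. The luminal groups themselves differed by edgeR in 9 of the 15 and 5 of the 7, so that share is not a like background. Of the defence genes Lcn2 was higher than in classes 2 and 11 by edgeR (0.496% of all tested genes were), and DESeq2 added the pattern receptor gene Tlr2 at 36.3 and 44.3 RPM against 20.9 and 15.4. None was called against classes 3 and 7 by either. At an unadjusted p under 0.05, 1 was lower than in those and 6 were higher than in classes 2 and 11. The share of all tested genes at that threshold was not counted. The replicate block called Lbp lower than in classes 3 and 7 and Cxcl1, Lcn2 and Tlr2 higher than in classes 2 and 11. The list's median log2 fold change was -0.32 against classes 3 and 7 and 0.73 against classes 2 and 11. Of 7 tested milk genes, Xdh, whose product is part of the milk fat droplet, was the one higher than in classes 2 and 11 (0.496% of all genes), with 68.7 and 85.6 RPM against 28.7 and 16.4 and with 142 and 114 in classes 3 and 7 (1.81 ± 0.28, edgeR adjusted p = 0.0111). Its adjusted p without 1 sum ranged up to 0.0966 (classes 2 and 11 of library 2), and was 0.0546 without their library 1, 0.0604 and 0.0508 without classes 3 and 7 of libraries 1 and 2. At an unadjusted p under 0.05, 3 milk genes were lower than in classes 3 and 7 and 3 higher than in classes 2 and 11. Here too the share of all tested genes was not counted. Beside Xdh, DESeq2 called Lalba and the replicate block Csn3 higher than in classes 2 and 11. The median of the milk list was -0.96 and 0.61.

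Among 15 tested keratin and barrier genes, Sprr1a, of the cornified envelope, was the one higher than in classes 3 and 7 (0.601% of all genes were), at 22.1 and 20.7 RPM against 4.69 and 3.89, with 24.4 and 24 in classes 2 and 11 (2.32 ± 0.38, edgeR adjusted p = 0.0209). Without the flanks its log2 fold change was 0.84 (adjusted p = 0.736), and without classes 3 and 7 of library 1 or 2 the adjusted p was 0.191 or 0.154, without classes 2 and 11 of library 1 or 2 0.0858 or 0.0819. The Sprr1a call was also lost with nuclei of 6000 to 15000 reads and by nuclei with a read (edgeR adjusted p = 0.0697 and 0.0526, both against classes 3 and 7). Plet1, also in this list, was the one called against classes 2 and 11, where DESeq2 and the replicate block called Cldn1 higher too. In the ErbB list of 10, Areg was the one gene called against classes 3 and 7 (0.787% of all genes were) and the EGF receptor gene Egfr the one called against classes 2 and 11 (0.531%); the replicate block also called Egfr lower than in classes 3 and 7. Egfr had 153 and 149 RPM in class 10, 245 and 247 in classes 3 and 7, and 53.4 and 82.4 in classes 2 and 11 (1.15 ± 0.21, edgeR adjusted p = 0.0365), and the call was lost without any of the 6 sums but that of classes 2 and 11 of library 2, with adjusted p from 0.054 to 0.216. The 10 Notch genes gave no call by edgeR or DESeq2 (unadjusted, 2 lower than in classes 3 and 7, and 1 higher and 1 lower than in classes 2 and 11). Notch3 lay below both groups in both libraries, at 37.6 and 50.2 RPM beside 82.2 and 65.1, and 84.1 and 70.9. It was 1 of 10 Notch genes to do so, beside 15.1% of all tested genes. Of the 9 immediate early genes edgeR called none; DESeq2 called Fosl2 higher than in classes 2 and 11; at an unadjusted p under 0.05, 1 was higher and 2 lower than in classes 3 and 7 and 2 higher than in classes 2 and 11.

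Class 10 nuclei were deeper than those of the luminal groups. The median nucleus had 8340.5 and 10406 reads, against 4204 and 5232 in classes 3 and 7 and 4643.5 and 6160 in classes 2 and 11. That was 1.98 and 1.99 times the median of classes 3 and 7, 1.80 and 1.69 times that of classes 2 and 11, and 0.943 and 0.913 times the sum of the 2 medians. Single nuclei spanned 2099 to 23652 and 2356 to 31485 reads, and 26 and 18 nuclei had under 6000. In nuclei of 2000 to 6000 reads the median progenitor share was 47.0% and 44.5% in class 10, 82.9% and 84.0% in classes 3 and 7, and 22.7% and 22.0% in classes 2 and 11. Class 10 was deeper within this range as well. Its medians were 4270.5 and 4099 reads, against 3372 and 3536.5 in classes 3 and 7 and 3447 and 3689 in classes 2 and 11. Class 14 was likewise deep, with medians of 7571 and 8412 reads. Promoter regions took a median of 25.4% and 22.6% of a nucleus's reads in class 10, 26.1% and 24.6% in classes 3 and 7, and 25.1% and 21.6% in classes 2 and 11.

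Points covered by at least 5 reads of a nucleus were counted within ranges of depth, in which the groups still differed in depth. In nuclei of 9000 to 15000 reads (medians of 12236 and 12076.5 reads in class 10, 10535 and 10615 in classes 3 and 7, and 10994.5 and 11048 in classes 2 and 11) the median number of such points was 18 and 15.5 in class 10, 14 and 16 in classes 3 and 7, and 17.5 and 15 in classes 2 and 11. Above 15000 reads it was 50 and 28 in class 10, 26 and 37 in classes 3 and 7, and 33 and 42 in classes 2 and 11, higher in class 10 in library 1 and lower in library 2. The median depth there was also higher in class 10 in library 1, at 19132.5 reads against 17025 and 16403, and lower in library 2, at 17645 against 17841 and 18264. Class 10 nuclei came from 60 and 48 of 128 outer and from 73 and 55 of 379 and 382 inner barcode parts. The part of depth, and of barcodes that hold 2 nuclei, in the intermediate levels was not tested.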

How the data were processed

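Per the submitters' processing notes, Bowtie2, MACS2, bedtools and build mm10 were used; their roles, versions and the peak settings are not given in the sources used here. The authors deposited read positions with barcodes (163 to 200 bases, median 195), lists of nuclei, 145453 distal and 19204 distinct promoter regions of 1000 bases, chromVAR motif scores and Cicero co-accessibility scores for region pairs. The deposited count of reads per nucleus equalled the reads carrying its barcode in every nucleus. The 7846 columns of a deposited gene score table name no sample and were not used. The members, gene lists, motif lists and comparisons were chosen with earlier results of these data known.

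Reads overlapping a feature were counted by nucleus and summed per adult library and class group (6 sums). The test was edgeR 4.0.16 (R 4.3.3; quasi-likelihood, TMM, features with a mean of at least 10 reads, Benjamini-Hochberg adjusted p under 0.05); SE is the log2 fold change over the square root of F. Gene spans came from RefSeq, build GRCm38.p6, with 2000 bases on either side. Mean motif scores were tested with limma 3.58.1. DESeq2 1.42.0 and Python 3.11.15 (numpy 2.4.6, pandas 2.3.3, scipy 1.17.1) were also used, and the fits were tested on simulated data. Named regions were those called beyond both groups, ranked by the smaller log2 fold change; the markers and fixed lists were given whatever their values, and lineage genes and regions were the largest differences between the luminal groups with a mean of at least 50 reads, a rule added after seeing the data.

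The library numbers pair the sums, since all groups of a library come from 1 sample: deviations from the group means correlated at 0.187, 0.225 and 0.317 over 13944 genes for the 3 pairs of groups. No doublet caller was run, because the deposited classes were taken as they stood. A level of 0 reads was bounded with a floor of 3 read pairs (6 reads), since reads come in pairs, and a share of 0 nuclei by its exact binomial interval; intervals and floors cover counting error only.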

Additional observations from a re-analysis of the deposited data

How the results depend on the processing

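Class 10 stayed between the luminal groups under each alternative for the position, but counts of calls moved with the processing and with single sums. Of 66 named results called, 21 were called under every setting that could be fitted and 45 were not under at least 1; the cause was not tested. One reversed: the Scarf2 promoter region, without class 10 replicate 1, went from a log2 fold change of 5.41 over classes 3 and 7 to -2.27, where class 10 has 0 reads left. Counts below are distal regions against classes 3 and 7 (4330 as reported), against classes 2 and 11 (1923), higher than both (1) and lower than both (60). With the replicate block they were 2596, 1180, 0 and 23, and with a mean of at least 30 reads 1864, 893, 2 and 17. With nuclei of 6000 to 15000 reads they were 1368, 745, 0 and 40, among 23906 tested regions in place of 46408. With nuclei having a read they were 2448, 1103, 0 and 9. A mean of at least 3 reads gave 3102 against classes 2 and 11, 0 and 257, DESeq2 3148 against classes 2 and 11 and 7 higher than both, and total-read scaling 4 and 24 beyond both. Without classes 3+7 replicate 2 the Scarf2 value was 7.44. Promoter regions (77, 70, and 2 lower than both) went to 35, 36 and 0 with at least 30 reads, 2, 3 and 0 with nuclei of 6000 to 15000 reads, and 25, 19 and 0 by nuclei with a read; DESeq2 and total-read scaling left 0 lower than both. Gene spans (135 and 91) went to 282 and 232 with DESeq2, 435 and 311 with the replicate block (1 higher and 1 lower than both, from 0), 32 and 45 with nuclei of 6000 to 15000 reads, and 27 and 32 by nuclei with a read. The pool comparison gave 1 promoter region with DESeq2 and 0 otherwise. Motifs beyond both groups went from 2 to 0 with medians of nuclei. With nuclei of 6000 to 15000 reads there were 2, but not Trp63 or Trp73. Over mature luminal regions the position moved from 47.2% to 45.8% with regions 4-fold apart, 48.6% with nuclei of 6000 to 15000 reads, 51.0% at promoters and 48.2% at gene spans. Leaving out 1 sum at a time gave ranges, against classes 3 and 7, classes 2 and 11, higher and lower than both, of 1549 to 2920, 502 to 1205, 0 to 2 and 2 to 77 distal regions, 21 to 313, 16 to 285, 0 to 14 and 0 to 87 promoter regions, and 1 to 260, 2 to 153, 0 to 3 and 0 to 10 gene spans. For motifs they were 69 to 218, 11 to 119 and 0 to 12 beyond both. By single library the position was 42.9 to 47.5% and 47.0 to 47.4%. Class 10 has a median of 4 and 3 reads in a tested distal region; the part of depth in the counts beyond both groups was not tested.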
